A study of Homo sapiens with 6 samples.

Results

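The circadian clock genes described here are 10 transcription regulators chosen by symbol: CLOCK, PER2, PER3, CRY1, CRY2, NR1D1, NR1D2, DBP, TEF and HLF. All 10 were found among the 38557 genes listed in each count file, and 9 had enough counts to be tested. HLF was the exception. Messenger RNA was sequenced from heart muscle cells differentiated from WTC11, a widely used induced pluripotent stem cell line of human origin that is labelled wild type, so all cultures share a single genetic background. One group of 3 cultures was kept in RPMI plus B27, a basal medium with a serum-free supplement, and the other group of 3 was kept in DMEM plus fatty acids. The replicates carry the numbers 1 to 3 in both media, and the design asks how the transcriptome depends on the backbone medium. The labels give no composition of the media, no culture age, no synchronising treatment and no hour of harvest, so the phase of the clock is not analysed here.

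In the mammalian clock, CLOCK pairs with another bHLH-PAS protein and activates genes through E-box elements in their promoters. Among these genes are those for the PER and CRY proteins, which then enter the nucleus and inhibit the activating pair. The nuclear receptors NR1D1 and NR1D2 (REV-ERB alpha and beta) close a further loop by repressing genes that carry a ROR response element. DBP, TEF and HLF are PAR bZIP transcription factors that carry the rhythm outward by binding D-box elements. In heart muscle the clock is known for its rhythmic control of substrate metabolism and of ion channels.

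No clock gene passed the test between media. Of the 9 tested genes, 0 had an adjusted p under 0.05 (edgeR quasi-likelihood test, Benjamini-Hochberg over 16107 genes), where 1.36% of all tested genes did. The count was also 0 with the replicate number as a block, where 4.78% of all genes passed, and 0 by the DESeq2 Wald test, where 6.72% of the genes with an adjusted p passed. At an unadjusted p under 0.05 there was 1 of the 9, PER2, against 17.7% of all genes. The media did not overlap for 2 of the 9, PER2 downward and NR1D2 upward in DMEM plus fatty acids, and 25.6% of all tested genes did not overlap. Both shares of the clock genes were thus near or below those of all genes. Fold changes are given as log2 of the DMEM plus fatty acids level over that in RPMI plus B27. Their median over the 9 was -0.02, beside 0.01 for all tested genes, with 4 values above and 5 below 0.

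The promoter windows of PER2, PER3 and NR1D2 are shown because PER2 and NR1D2 were the clock genes whose libraries separated by medium, and because these 3 genes carry a D-box match. The sequences are RefSeq's, on GRCh38.p14, and all 10 clock genes had at least 1 window, 16 in all. Each stretch is the 250 bases before a RefSeq transcript start, read 5′ to 3′ on the gene's strand. They lie at chr1:7784041-7784290 (plus strand, PER3), chr2:238288611-238288860 (minus strand, PER2) and chr3:23945871-23946120 (plus strand, NR1D2). None of the 3 overlaps an exon of its own gene in GENCODE 29. The PER2 and NR1D2 windows lie inside the GENCODE 29 spans of these genes, past the annotated gene start. PER3 and NR1D2 each had a further window without a motif match, which is not printed. These lie at chr1:7784179-7784428 (PER3) and chr3:23945036-23945285 (NR1D2). Capitals mark an E-box (CACGTG), an E′-box (CACGTT) or a D-box (TTANGTAA), each searched on both strands.
PER3: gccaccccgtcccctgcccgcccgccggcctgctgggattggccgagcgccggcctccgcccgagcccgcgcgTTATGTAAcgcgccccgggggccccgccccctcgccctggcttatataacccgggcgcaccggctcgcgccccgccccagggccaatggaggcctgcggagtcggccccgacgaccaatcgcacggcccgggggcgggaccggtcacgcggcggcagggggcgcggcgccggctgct
PER2: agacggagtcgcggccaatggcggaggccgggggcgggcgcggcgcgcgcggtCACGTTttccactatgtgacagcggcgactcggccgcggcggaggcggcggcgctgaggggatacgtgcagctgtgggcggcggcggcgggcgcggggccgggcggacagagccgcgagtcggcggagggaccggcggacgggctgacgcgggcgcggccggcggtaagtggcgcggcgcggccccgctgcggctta
NR1D2: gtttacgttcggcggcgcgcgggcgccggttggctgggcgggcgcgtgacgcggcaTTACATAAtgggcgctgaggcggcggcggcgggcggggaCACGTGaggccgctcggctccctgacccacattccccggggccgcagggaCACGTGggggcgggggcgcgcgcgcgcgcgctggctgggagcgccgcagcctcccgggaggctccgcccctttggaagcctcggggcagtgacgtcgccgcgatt
The PER3 window held a single D-box match, the PER2 window an E′-box match, and the NR1D2 window a D-box match followed by a pair of E-box matches. The next lines put the D-box matches side by side in 30 bases each, at chr1:7784103-7784132 for PER3, chr2:238288595-238288624 for PER2 and chr3:23945916-23945945 for NR1D2. The PER2 match starts 3 bases before the RefSeq start and runs across it. The NR1D2 match fits TTANGTAA when read on the opposite strand.
PER3 D-box: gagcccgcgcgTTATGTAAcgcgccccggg
PER2 D-box: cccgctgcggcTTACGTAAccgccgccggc
NR1D2 D-box: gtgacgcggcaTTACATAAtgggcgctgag
A D-box match was present in 3 of the 16 clock gene windows of 300 bases, which reach 50 bases past the start, and in 2.18% of all 35116 RefSeq windows of that length. An E-box match was present in 3 of the 16 (a window of NR1D2 and both windows of TEF) and in 7.26% of all windows. An E′-box match was present in 5 of the 16, in CLOCK, PER2, CRY1, CRY2 and NR1D1, and in 5.34% of all windows. The E-box matches of TEF and the E′-box matches of PER2 and NR1D1 are printed for comparison, at chr22:41367248-41367277, chr22:41381737-41381766, chr2:238288790-238288819 and chr17:40100740-40100769.
TEF first window: gcgcgacagctcCACGTGctgcagctggcg
TEF second window: cacctggccccgCACGTGtctatcttatcc
PER2 E′-box: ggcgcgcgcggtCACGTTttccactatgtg
NR1D1 E′-box (opposite strand): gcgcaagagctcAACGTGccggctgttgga
A ROR response element core (ANTNGGTCA) was matched in 1 window of CLOCK and in 1.97% of all windows, and a cAMP response element (TGACGTCA) in 1 window of HLF and in 1.85% of all. DBP had no match to any of the 5 motifs in its window. A match describes letters in these windows and is not a measured binding site. PER3 and NR1D2, with D-box matches, had positive log2 fold changes, while PER2, with one as well, had a negative one.

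CLOCK is the activating bHLH-PAS subunit, with a histone acetyltransferase activity, and lies at chr4:55427903-55547138 (minus strand, GRCh38). Its TMM-scaled CPM level (counts relative to a common library total) was 64.8, 100.3 and 95.3 in RPMI plus B27 replicates 1 to 3 and 105.0, 115.2 and 99.2 in DMEM plus fatty acids. RPMI plus B27 replicate 1 was the lowest of the 6, and the media overlapped. The log2 fold change was 0.29 ± 0.18 (SE), with a 95% interval of -0.12 to 0.71 and an adjusted p of 0.429. It was 0.12 without RPMI plus B27 replicate 1.

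**Figure D1:**
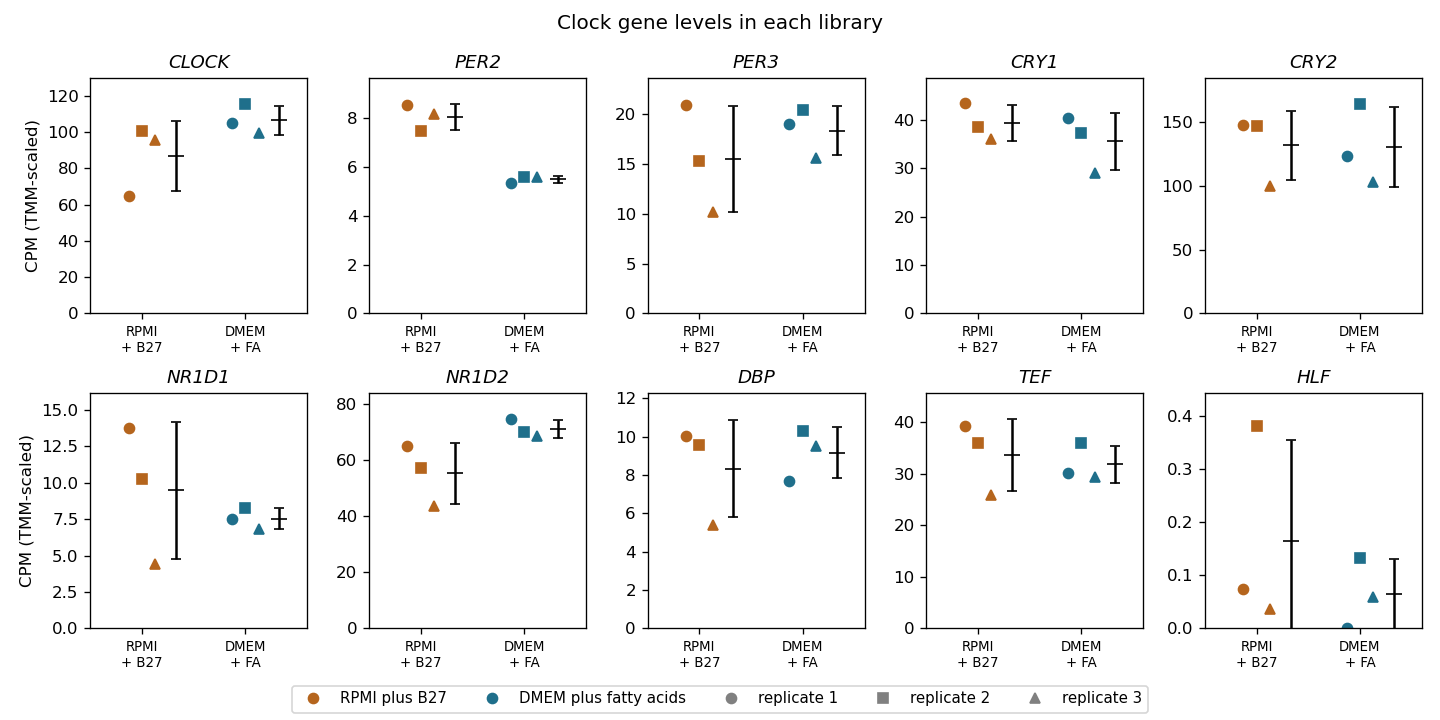
TMM-scaled CPM (vertical axes, linear and starting at 0, a scale per gene) of the 10 clock genes in the 3 libraries of each medium, with marker shape for the replicate number and black bars for mean ± SD. PER2 is lower and NR1D2 higher in every DMEM plus fatty acids library than in every RPMI plus B27 library, while the other 8 genes overlap between media.

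The PER proteins form the repressor complex with the CRY proteins, and their amount is limiting for it. PER2 (chr2:238244038-238290102, minus strand) had 8.54, 7.48 and 8.16 CPM in RPMI plus B27 and 5.33, 5.58 and 5.60 CPM in DMEM plus fatty acids. All 3 libraries in DMEM plus fatty acids lay below all 3 in RPMI plus B27, and both groups were tight. The means were 8.06 ± 0.54 and 5.50 ± 0.15 CPM (SD, n = 3 each), from 124 to 227 counts per library. Its log2 fold change of -0.55 ± 0.18 had a 95% interval of -0.98 to -0.12, an unadjusted edgeR p of 0.0181 and an adjusted p of 0.184. The adjusted p ran from 0.0603 (DESeq2) to 0.400 over its 11 alternatives, and the fold change from -0.60 to -0.51 over the fits that left out 1 library. PER2 thus had the smallest p of the clock genes and did not pass in any of these fits. PER3 (chr1:7784320-7845177, plus strand), a paralog of PER2 that is dispensable for rhythm generation in mice, showed no such separation. It had 20.9, 15.3 and 10.2 CPM in RPMI plus B27 and 19.0, 20.4 and 15.6 CPM in DMEM plus fatty acids. Its highest and its lowest library were both in RPMI plus B27. The log2 fold change was 0.24 ± 0.27 (95% interval -0.38 to 0.87, edgeR adjusted p 0.679), and 0.02 without RPMI plus B27 replicate 3 but 0.52 without RPMI plus B27 replicate 1.

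CRY1 and CRY2 are cryptochromes, flavoproteins related to photolyases that bind and silence the activating pair. CRY1 (chr12:106991364-107093829, minus strand) had 43.4, 38.6 and 36.1 CPM in RPMI plus B27 and 40.4, 37.3 and 28.99 CPM in DMEM plus fatty acids. CRY2 (chr11:45847118-45883248, plus strand) had 147.6, 146.8 and 99.997 CPM in RPMI plus B27 and 123.4, 164.0 and 102.6 CPM in DMEM plus fatty acids. In both genes and both media the library with number 3 was the lowest of its group, and the media overlapped. The log2 fold change was -0.15 ± 0.16 for CRY1 (95% interval -0.52 to 0.23, edgeR adjusted p 0.673), and it ran from -0.25 without DMEM plus fatty acids replicate 1 to -0.016 without DMEM plus fatty acids replicate 3. For CRY2 it was -0.02 ± 0.22 (-0.53 to 0.50, edgeR adjusted p 0.977), with a sign that turned under scaling by library totals (0.09). A change in CRY2 of up to about the ends of that interval could not be told from none at this depth and replication.

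NR1D1 and NR1D2 are haem-binding nuclear receptors without an activating domain, and they repress genes of the positive limb. NR1D1 (chr17:40092787-40100725, minus strand) was the most uneven of the 9 tested clock genes between RPMI plus B27 libraries. It had 13.7, 10.2 and 4.43 CPM there and 7.49, 8.25 and 6.84 CPM in DMEM plus fatty acids, so that all 3 DMEM plus fatty acids libraries fell inside the RPMI plus B27 range. The log2 fold change was -0.33 ± 0.38 (95% interval -1.22 to 0.56, edgeR adjusted p 0.696), and it became 0.04 without RPMI plus B27 replicate 1 and -0.67 without RPMI plus B27 replicate 3. NR1D2 (chr3:23945260-23980618, plus strand) had 65.1, 57.3 and 43.4 CPM in RPMI plus B27 and 74.6, 70.1 and 68.6 CPM in DMEM plus fatty acids. Every DMEM plus fatty acids library was above every RPMI plus B27 library, by a small margin over RPMI plus B27 replicate 1. The log2 fold change was 0.36 ± 0.16 (95% interval -0.01 to 0.74), with an unadjusted edgeR p of 0.0553 and an adjusted p of 0.295. The adjusted p ran from 0.138 to 0.504 over its 11 alternatives. Without RPMI plus B27 replicate 3 the fold change was 0.22.

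DBP, TEF and HLF share the PAR bZIP domain and bind the D-box as homo- or heterodimers. DBP (chr19:48630030-48637438, minus strand), in liver one of the most strongly rhythmic transcripts known, had 10.01, 9.56 and 5.40 CPM in RPMI plus B27 and 7.70, 10.3 and 9.51 CPM in DMEM plus fatty acids. RPMI plus B27 replicate 3 was the lowest, and the media otherwise overlapped. The log2 fold change was 0.14 ± 0.27 (95% interval -0.50 to 0.78, edgeR adjusted p 0.826), and -0.09 without that library. TEF (chr22:41367333-41399326, plus strand) had 39.3, 36.1 and 25.9 CPM in RPMI plus B27 and 30.2, 36.1 and 29.3 CPM in DMEM plus fatty acids. Its log2 fold change was -0.08 ± 0.19 (-0.52 to 0.35, edgeR adjusted p 0.851), with a sign that turned under scaling by library totals (0.02) and without RPMI plus B27 replicate 1 (0.04). HLF (chr17:55265012-55325065, plus strand) was close to undetected. It had 2, 9 and 1 counts in RPMI plus B27 and 0, 4 and 2 counts in DMEM plus fatty acids. A count of 0 in DMEM plus fatty acids replicate 1 allows up to 0.129 CPM, and no fold is given for this gene.

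Levels were compared between genes only as mean CPM per kilobase of the main transcript (APPRIS principal in GENCODE 29, an annotation that may differ from the one used for counting). In RPMI plus B27 the order was CRY2 (31.3 ± 6.49), CRY1 (12.1 ± 1.14), NR1D2 (10.5 ± 2.08), CLOCK (8.42 ± 1.86) and TEF (7.68 ± 1.59). DBP (3.74 ± 1.14), NR1D1 (3.42 ± 1.70), PER3 (2.49 ± 0.86), PER2 (1.26 ± 0.084) and HLF (0.030 ± 0.034; SD, n = 3 throughout) followed. Neighbours whose means ± SD overlapped were CRY1 and NR1D2, NR1D2 and CLOCK, CLOCK and TEF, DBP and NR1D1, and NR1D1 and PER3. In DMEM plus fatty acids the order was CRY2 (30.9 ± 7.43), NR1D2 (13.5 ± 0.59), CRY1 (10.9 ± 1.80), CLOCK (10.3 ± 0.78) and TEF (7.25 ± 0.84). There DBP (4.11 ± 0.60), PER3 (2.95 ± 0.39), NR1D1 (2.72 ± 0.26), PER2 (0.86 ± 0.023) and HLF (0.012 ± 0.012) followed. Only CRY1 and CLOCK, and PER3 and NR1D1 were neighbours with such overlap in that medium. CRY2 was thus the most abundant clock transcript per kilobase and HLF the least abundant in both media.

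**Figure D2:**
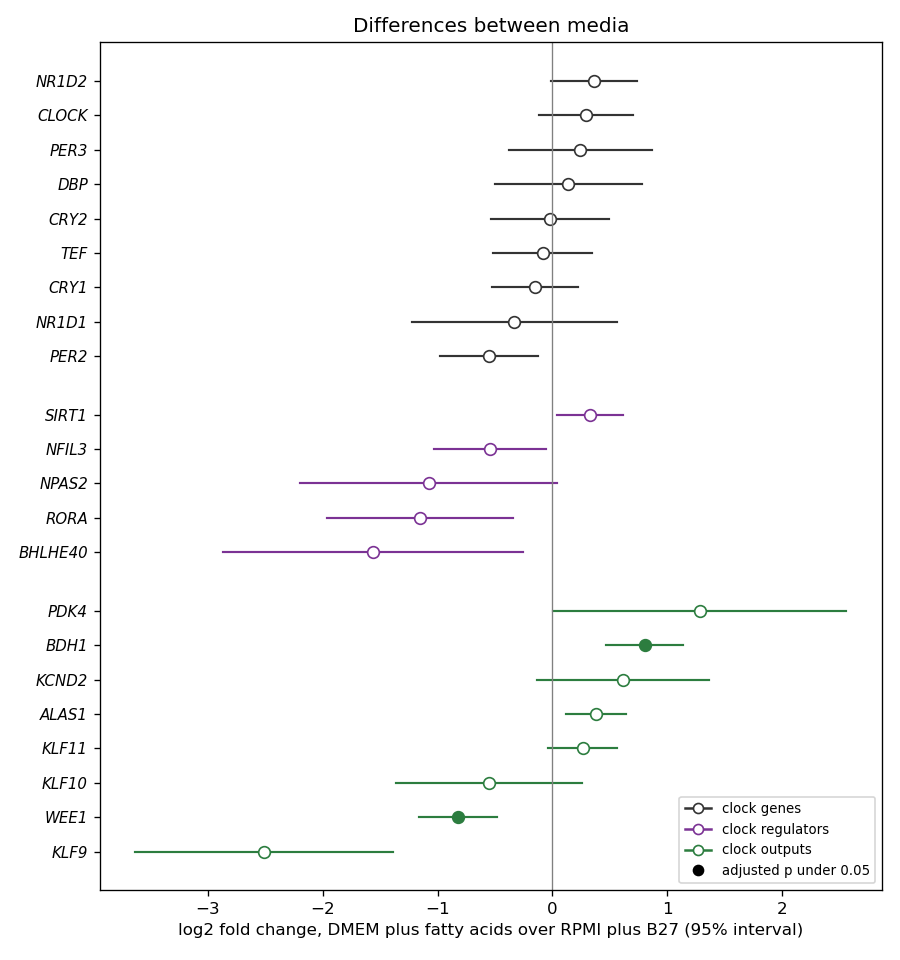
Log2 fold change (horizontal axis, positive where the level was higher in DMEM plus fatty acids) with its 95% interval for the 9 tested clock genes, 5 further regulators and 8 output genes, where filled circles have an adjusted p under 0.05. The filled circles are WEE1 and BDH1, and among the clock genes only the interval of PER2 lies wholly on one side of 0.

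Some clock genes share exon bases with a gene on the other strand. In GENCODE 29, 9.49% of the NR1D1 exon bases overlap THRA (thyroid hormone receptor alpha), 10.1% of those of DBP overlap SPHK2 (sphingosine kinase 2) and 10.7% of those of PER3 overlap UTS2 (urotensin 2). The library kit keeps the strand, but the strand setting of the counting is not given in the sources used here, so reads over these bases are uncertain. THRA had 94.7 ± 5.46 CPM in RPMI plus B27 and 115.8 ± 1.93 CPM in the other medium (SD, n = 3; log2 fold change 0.29 ± 0.10, edgeR adjusted p 0.1998). SPHK2 had 15.4 ± 3.54 and 19.9 ± 1.42 CPM (0.37 ± 0.20, edgeR adjusted p 0.375), and UTS2 had at most 0.043 CPM in any library. The positive values of THRA and SPHK2 stand beside a negative value for NR1D1 and a positive one for DBP. CLOCK shares 0.646% of its exon bases with TMEM165. Further overlaps on the other strand are with genes absent from the count files. They cover 5.95% of the exon bases of PER3 (Z98884.1), 2.73% of PER2 (AC012485.1), 1.86% of CRY1 (AC078929.1) and 0.230% of CLOCK (AC024243.1).

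Shares of raw counts within a library do not depend on how libraries are scaled, and 4 were compared by exact two-sided permutation tests, whose smallest p with 3 against 3 libraries is 0.1. They are shares of reads, not corrected for transcript length. PER2 made up 29.03%, 32.8% and 44.4% of the PER2 and PER3 counts in RPMI plus B27 and 21.9%, 21.5% and 26.4% in DMEM plus fatty acids. Each DMEM plus fatty acids library was below each RPMI plus B27 library. The mean difference was -12.1 percentage points (exact permutation p 0.1, the smallest possible, and 0.267 adjusted over the 4 shares). Within replicate numbers the 3 differences were -7.08, -11.3 and -18.0 points (exact sign-flip p 0.25, the smallest 3 pairs allow). Without RPMI plus B27 replicate 3 the mean difference was -7.64 points. NR1D1 made up 17.4%, 15.2% and 9.26% of the NR1D1 and NR1D2 counts in RPMI plus B27 and 9.12%, 10.5% and 9.07% in DMEM plus fatty acids (difference -4.38 points, exact permutation p 0.2, adjusted 0.267). RPMI plus B27 replicate 3 lay among the DMEM plus fatty acids libraries. Within replicate numbers the NR1D1 differences were -8.31, -4.64 and -0.191 points, all negative (exact sign-flip p 0.25). The mean difference was -2.64 points without RPMI plus B27 replicate 1 and -6.73 without RPMI plus B27 replicate 3. DBP made up 20.3%, 20.8% and 17.2% of the PAR bZIP counts in RPMI plus B27 and 20.3%, 22.1% and 24.4% in DMEM plus fatty acids (difference 2.88 points, exact permutation p 0.2, adjusted 0.267). The DBP differences within numbers were 0.0665, 1.37 and 7.21 points, all positive (exact sign-flip p 0.25), with the number 3 pair by far the largest. The unpaired difference between the mean shares of the media fell to 1.79 points without RPMI plus B27 replicate 3. It was 1.81 without DMEM plus fatty acids replicate 3. CRY1 made up 22.7%, 20.8% and 26.5% of the CRY counts in RPMI plus B27 and 24.6%, 18.5% and 22.0% in DMEM plus fatty acids (difference -1.62 points, exact permutation p 0.5, adjusted 0.5). The CRY1 differences within numbers were 1.92, -2.26 and -4.51 points. The unpaired difference between mean shares ran from -3.07 without DMEM plus fatty acids replicate 1 to -0.0172 without DMEM plus fatty acids replicate 2. The 95% Wilson intervals of single libraries reached at most 4.37 points to either side for the PER share, 2.66 for DBP, 1.76 for NR1D1 and 1.43 for CRY1, and cover counting error only.

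**Figure D3:**
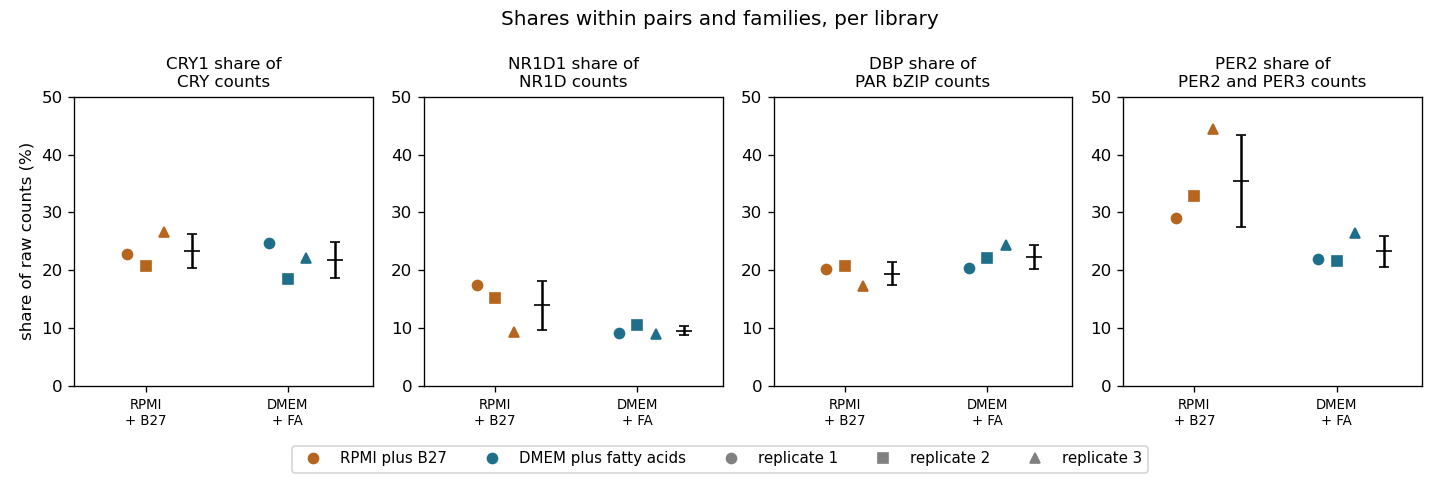
Share of raw counts in percent (vertical axis) taken by CRY1, NR1D1, DBP and PER2 within their family or pair, per library, with marker shape for the replicate number and black bars for mean ± SD. The PER2 share is the one in which all 3 DMEM plus fatty acids libraries, at 21.5% to 26.4%, lie below all RPMI plus B27 libraries, at 29.03% to 44.4%.

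The clock genes also varied among libraries of the same medium, PER2 least. RPMI plus B27 replicate 3 was the lowest of its medium in 7 of the 9 genes (PER3, CRY1, CRY2, NR1D1, NR1D2, DBP and TEF), a position it held in 34.3% of all tested genes. DMEM plus fatty acids replicate 3 was the lowest of its medium in 7 of the 9 (CLOCK, PER3, CRY1, CRY2, NR1D1, NR1D2 and TEF), against 33.7% of all tested genes. RPMI plus B27 replicate 1 was the lowest of its medium in 1 of the 9, CLOCK, against 39.8% of all tested genes. On average over the 9 genes, log2 CPM in RPMI plus B27 replicates 1 to 3 deviated from the mean of that medium by 0.22, 0.11 and -0.34, and in DMEM plus fatty acids by -0.01, 0.14 and -0.12. These counts were made after the values had been seen and carry no test, and the clock genes are not independent of each other.

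**Figure D4:**
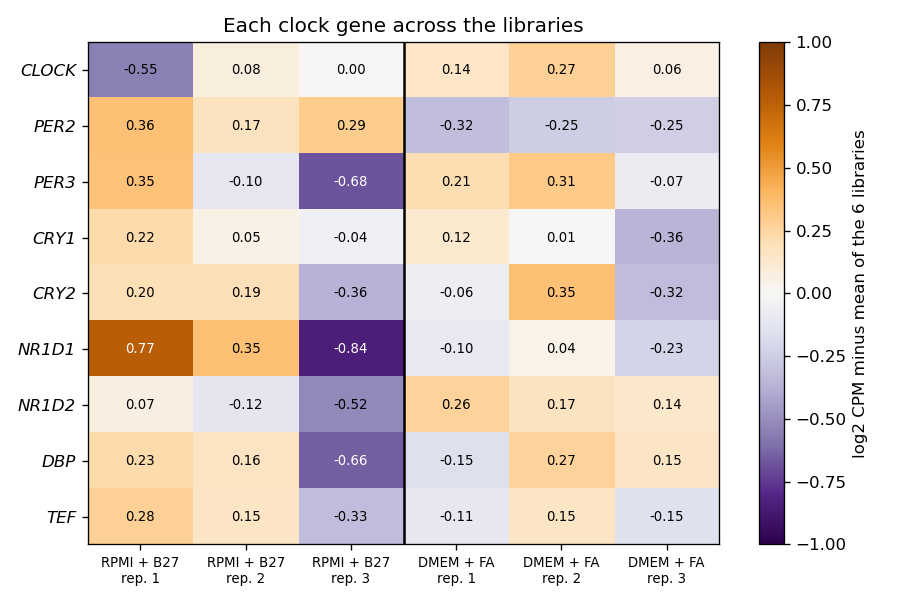
Log2 CPM of each tested clock gene (rows) in each library (columns) minus its mean over the 6 libraries, with orange above and purple below that mean. NR1D1, PER3, DBP, NR1D2, CRY2 and TEF have their lowest value in RPMI plus B27 replicate 3, and PER2 is the row that divides by medium with the higher values on the RPMI plus B27 side.

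Across the 6 libraries, which span both media and share replicate numbers, the level of NR1D1 was most like that of TEF among the clock genes (Pearson's r of log2 CPM 0.95, Spearman's rho 1). CRY2 and TEF had r = 0.91 and rho = 0.83, DBP and TEF 0.83 and 0.77, and PER3 and NR1D2 0.89 and 0.60. The lowest r was between PER2 and CLOCK (-0.72, rho -0.89). Without the 2 libraries farthest from the median of the first gene of each pair, r over the remaining 4 was 0.85, 0.77, 0.61, 0.70 and -0.41 in that order. These are descriptions of 6 libraries. Among 10026 other genes averaging 10 CPM or more, those most like NR1D1 were IL17RA (a cytokine receptor subunit, r = 0.9996), SAT2 (a spermidine/spermine acetyltransferase family member, 0.997) and R3HDM2 (0.993). Those most like DBP were MRPL10 (a mitochondrial ribosomal protein, 0.982), FAXDC2 (0.970) and DOCK4 (a Rac exchange factor, 0.969). With so many genes and 6 libraries, values this high say little about single genes. The r of MRPL10 with DBP was 0.61 without RPMI plus B27 replicate 3 and DMEM plus fatty acids replicate 1.

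A list of clock regulators, drawn up with earlier results of these data known, held 24 genes found in the files, of which 21 were tested. None passed between media (0 of 21, edgeR). At an unadjusted p under 0.05 there were 5, namely 2 higher and 3 lower, beside the 17.7% of all tested genes. The median log2 fold change of the list was -0.02. The higher ones included SIRT1, an NAD-dependent deacetylase that binds CLOCK complexes (0.33 ± 0.12, edgeR adjusted p 0.226). The lower ones were RORA, the activating receptor that competes with the NR1D proteins, BHLHE40 (DEC1), an E-box repressor, and NFIL3 (E4BP4), a D-box repressor (-0.54 ± 0.21, edgeR adjusted p 0.241). NPAS2, a paralog of CLOCK, had -1.08 ± 0.48 (edgeR adjusted p 0.299). Without RPMI plus B27 replicate 1 the log2 fold change was -0.35 for NFIL3 and -0.49 for NPAS2.

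RORA had 48.9, 26.2 and 18.9 CPM in RPMI plus B27 and 17.1, 13.2 and 12.02 CPM in DMEM plus fatty acids. The media did not overlap, and RPMI plus B27 replicate 1 stood highest. Its log2 fold change was -1.15 ± 0.35 with an edgeR adjusted p of 0.158, or -0.68 without that library. With the replicate number as a block it was -1.06 ± 0.19 with an adjusted p of 0.0384, and by DESeq2 its adjusted p was 0.0256. In all, 2 of the 21 regulators passed with the block, both lower, where 3.42% of all tested genes passed downward. BHLHE40 had 109.0, 46.9 and 21.0 CPM in RPMI plus B27 and 28.1, 16.1 and 15.9 CPM in DMEM plus fatty acids, with overlap. Its log2 fold change was -1.56 ± 0.56 (edgeR adjusted p 0.210), or -0.76 without RPMI plus B27 replicate 1, and the adjusted p was 0.0630 with the block and 0.0394 by DESeq2. The repressing receptors NR1D1 and NR1D2 and the activating receptor RORA thus had log2 fold changes of -0.33, 0.36 and -1.15, none past the threshold in the edgeR test without the block.

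Of 18 clock output genes, a list drawn up in the same way, 2 passed, WEE1 lower and BDH1 higher in DMEM plus fatty acids (edgeR; 1.07% and 0.292% of all tested genes passed downward and upward). The median of the 18 was 0.02, with 9 values on either side of 0. WEE1, a kinase that restrains entry into mitosis and a known E-box target, had 159.9, 121.4 and 136.5 CPM in RPMI plus B27 and 79.3, 70.0 and 87.2 CPM in DMEM plus fatty acids. All 3 DMEM plus fatty acids libraries were below all RPMI plus B27 libraries, and the log2 fold change was -0.82 ± 0.14 (edgeR adjusted p 0.0486). BDH1, a mitochondrial enzyme of ketone body use and a reported target of the cardiomyocyte clock in mice, had 15.7, 19.9 and 19.9 CPM in RPMI plus B27 and 32.5, 31.7 and 32.8 CPM in DMEM plus fatty acids. Again the media were apart, with a log2 fold change of 0.81 ± 0.14 (edgeR adjusted p 0.0495). Both adjusted p values lay just under the threshold, and each gene lost its call whichever of the 6 libraries was left out. The edgeR adjusted p then reached up to 0.173 for WEE1 and 0.165 for BDH1. Those fits called only 3 to 131 genes over all genes, against 219 with all libraries. Under scaling by library totals WEE1 had an edgeR adjusted p of 0.0728, and with a filter of 10 counts in every library WEE1 and BDH1 had 0.0566 and 0.0572. Both passed with the replicate block (0.0231 and 0.0319), by DESeq2 (0.000243 and 0.00035) and in edgeR with no filter (0.0196 and 0.0327). KLF9, a Krüppel-like factor that is both clock-controlled and glucocorticoid-responsive, had the largest fold change of the list. It had 16.1, 5.57 and 5.44 CPM in RPMI plus B27 and 1.63, 1.34 and 1.78 CPM in DMEM plus fatty acids (-2.51 ± 0.48, edgeR adjusted p 0.0600). Its adjusted p was 0.0289 with the replicate number as a block, 6.71e-06 by DESeq2 and 0.0112 in edgeR with no filter, and its log2 fold change was -1.80 without RPMI plus B27 replicate 1. ALAS1 (the first enzyme of haem synthesis), PDK4, KLF11, KCND2 and KLF10 had log2 fold changes of 0.38, 1.29, 0.27, 0.62 and -0.55 and edgeR adjusted p values of 0.149 to 0.454. The media overlapped for PDK4, and KCND2 had only 16 to 38 counts per library. The value of KLF10 was -0.23 without DMEM plus fatty acids replicate 1.

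Markers of other cell types differed with the medium beside these results. In bulk RNA, fewer cells of a type and less RNA per cell cannot be told apart. The summed level of 13 fibroblast and stromal markers was 4349 to 8481 CPM in RPMI plus B27 and 760.9 to 1960 CPM in DMEM plus fatty acids. The sum was highest in RPMI plus B27 replicate 1, and nearly all of it came from COL1A1, COL1A2 and COL3A1. Of the 13 genes, 6 passed downward, beside 1.07% of all tested genes (edgeR). Log2 fold changes were negative for 12 and positive for 1, DDR2 (0.31, edgeR adjusted p 0.779). For 6 smooth muscle markers the sums were 1944 to 2282 and 577.0 to 1352 CPM, with 1 of 6 passing downward. For 7 epicardial markers they were 1689 to 2235 and 796.9 to 1022 CPM, with 1 of the 4 tested passing downward. That gene was KRT8, and nearly all of the sum came from KRT8 and KRT18, keratins of simple epithelia in general. WT1, UPK3B, MSLN and ALDH1A2 were at most 0.941 CPM in any library, and TBX18 had 3.10 to 7.72 and 0.802 to 1.36 CPM. The 6 endothelial markers came to 29.6 to 239.3 and 114.7 to 463.1 CPM, nearly all from KDR. PECAM1, CDH5, VWF and ERG were at most 0.41 CPM in any library. Of the 2 endothelial markers tested, 0 passed, and 1 passed upward with the block. KDR had a log2 fold change of 1.26 (edgeR adjusted p 0.434). TEK went the other way, with 0.48 to 1.13 and 0.10 to 0.26 CPM (-2.13, edgeR adjusted p 0.096). The 12 cardiomyocyte markers came to 31888 to 39895 CPM in RPMI plus B27 and 26061 to 36085 CPM in DMEM plus fatty acids. Of the 12, 0 passed, 2 passed with the block, both lower, and 3 had an unadjusted edgeR p under 0.05. Over all tested genes 1.36% passed, 3.42% passed downward with the block and 17.7% had such an unadjusted p. Of the 5 pluripotency markers, only DNMT3B exceeded 1 CPM. Their part in the values of RORA, BHLHE40, KLF9 and the clock genes was not tested.

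The 6 libraries held 23232324 to 31035389 gene counts. The most similar 2 libraries differed by a chi-square of 32.2 per degree of freedom, well above sampling noise, and all 6 were counted as replicates. Over all genes 219 passed, 172 of them (78.5%) lower in DMEM plus fatty acids, and 63.4% of 202 under scaling by library totals, which moved the median of all log2 fold changes from 0.01 to 0.12. The labels call the replicates biological without saying what separates them. The edgeR p-values thus set the difference between media against the spread between these cultures only. Without the block, the fit treats the 6 libraries as independent.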

How the data were processed

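Messenger RNA of 6 cultures was sequenced, 3 per medium, and grouped by the sample titles. The authors deposited a file of raw read counts by gene symbol for each library. STAR, HTSeq and hg38 are named in the submitters' processing notes, and the annotation, versions and strand setting are not given in the sources used here. The summary rows (no feature 5.44% to 7.57%, ambiguous 3.90% to 4.15%, not unique 3.05% to 4.10% of all counts in a library, gene and summary rows together) were left out. Near-identical or overlapping genes can thus be undercounted.

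The test was that of edgeR 4.0.16, run in R 4.3.3 (filterByExpr with minimum count 10 and minimum total 15, TMM, quasi-likelihood test, Benjamini-Hochberg, threshold 0.05), after a check on simulated data. The simulated libraries were independent and varied less than the real ones, so that check does not cover the spread of these data. CPM use gene totals scaled by TMM. Standard errors were derived from the F statistic, and 95% intervals use its degrees of freedom. Alternatives were the replicate number as a block, DESeq2 1.42.0, library totals, 2 other filters and leaving out each library. Deviations from the medium mean correlated across genes at 0.31, 0.43 and 0.37 for libraries with the same number and at -0.24 to -0.14 for others. Such deviations cancel out within a medium, so the negative values follow largely from the positive ones. From the positive values the numbers were taken to pair the libraries, although no label says what a number stands for. The reported edgeR test has no block, and the fit with one is an alternative. A count of 0 was read as allowing 3 counts.

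The clock genes, lists and tests were chosen with earlier results of these data known. All 10 clock genes are named, with called genes and up to 6 others of smallest p per list, overlapping genes and the 3 genes most like NR1D1 and DBP. KDR, DNMT3B and the single fibroblast, endothelial and epicardial markers were named after their values were seen. A regulator that this rule selects, and another, outside it, that was called with the block, are not reported here.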

Additional observations from a re-analysis of the deposited data

How the results depend on the processing

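The count of clock genes past the threshold was 0 in each of the 11 alternatives to the test without a block. The fits without 1 library called only 3 to 131 genes over all genes, so a count of 0 there carries little weight. The median log2 fold change of the clock genes lay between -0.18 and 0.12 over the fits without 1 library. The sign turned for CRY2 under library totals (0.0865) and in 4 of the fits without 1 library (range -0.22 to 0.13). It turned for TEF under library totals (0.0233) and without RPMI plus B27 replicate 1 (0.0387, range -0.24 to 0.0387), for NR1D1 without RPMI plus B27 replicate 1 (0.0377, range -0.67 to 0.0377) and for DBP without RPMI plus B27 replicate 3 (-0.0917, range -0.0917 to 0.29). CLOCK, PER2, PER3, CRY1 and NR1D2 kept their sign in all 11. The cause was not tested.

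Over all genes, 219 calls became 770 with the replicate number as a block, 1214 by DESeq2, 539 with no filter, 119 when each library had to hold 10 counts or more, and 3 to 131 without 1 library. Regulator calls went from 0 to 2 with the replicate block and to 2 by DESeq2, and stayed at 0 without any 1 library. Output calls went from 2 to 3 with the replicate block, by DESeq2 and with no filter, to 1 under library totals and to 0 under that stricter filter and in each fit without 1 library. With the replicate block (the exact sign-flip test within pairs) the differences in shares were -1.62 points for CRY1 (p 0.5), -4.38 for NR1D1, 2.88 for DBP and -12.1 for PER2 (p 0.25 each). The block changed no other call of a named gene than those of RORA and KLF9. For HLF, with at most 9 counts in a library, a difference between media was not detectable at this depth.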
